A study of Rattus norvegicus with 12 samples.

Results

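The genes described here serve the antioxidant defence that the transcription factor Nrf2 helps to control, followed in denervated rat gastrocnemius. They were Nqo1, Abcc1, Hmox1, Gclc, Gclm, Txnrd1, Sod1, Sod2, Cat and Nfe2l2, the last of which encodes Nrf2 itself. Members were taken as every probe set of the array whose only gene symbol in the platform annotation is one of these names, which gave 12 probe sets for 10 genes out of 31042 probe sets that are not controls. Gclc and Txnrd1 had 2 probe sets each, and a gene is represented below by the probe set with its highest mean over all arrays. The probe sets were picked by gene name alone, but the 10 genes were proposed with earlier results of these data known, and all 12 probe sets passed the filter on low signal that left 18625 probe sets for testing.

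Male Wistar-Hannover rats had their left sciatic nerve cut, which removes the nerve supply of the gastrocnemius, a calf muscle. The anabolic androgen nandrolone, or its vehicle, was then given for 7 days. Dosing began either at surgery or after a wait of 29 days, and the muscle was taken at day 7 or day 35 accordingly. The 4 groups were thus vehicle at day 7, nandrolone at day 7, vehicle at day 35 and nandrolone at day 35, with 3 arrays each and 12 in all. All 4 groups carried the nerve cut and no innervated muscle was among them, so the data compare drug and time within denervated muscle. The labels give no age, do not say whether a sample pools animals and name no animal, so the p-values measure the spread between these samples. Between the days, the time since the nerve was cut, the age at collection and the day on which dosing began cannot be told apart.

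Nrf2 is held in the cytoplasm and marked for degradation by Keap1, an adaptor of a Cul3 ubiquitin ligase. Oxidants and electrophiles modify Keap1, Nrf2 then accumulates, pairs with small Maf proteins in the nucleus and binds antioxidant response elements, raising genes for quinone reduction, glutathione and thioredoxin metabolism, haem breakdown and drug export. Nrf2 is regulated largely through its protein, which arrays do not measure. Superoxide dismutases and catalase handle superoxide and hydrogen peroxide, much of which arises in the mitochondria of muscle fibres, and denervation is a setting in which muscle peroxide production is known to rise.

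Promoter sequence is shown for the 3 genes that rose between day 7 and day 35 (Nqo1, Abcc1 and Cat) and for 2 genes whose promoter window holds the core letters of the antioxidant response element (Gclm and Txnrd1). The windows run from 250 bases before to 50 bases after the RefSeq start of the gene on the GRCr8 rat assembly, and 9 of the 10 genes matched the table of such windows. The positions are chr19:52220218-52220517 on the minus strand for Nqo1, chr10:1162318-1162617 on the minus strand for Abcc1, chr3:110329477-110329776 on the minus strand for Cat, chr2:213031885-213032184 on the plus strand for Gclm and chr7:22755855-22756154 on the minus strand for Txnrd1. Each is written 5′ to 3′ along its gene, and capitals mark the letters TGACNNNGC of the element's core, which are read in reverse complement where they lie on the opposite strand.
Nqo1: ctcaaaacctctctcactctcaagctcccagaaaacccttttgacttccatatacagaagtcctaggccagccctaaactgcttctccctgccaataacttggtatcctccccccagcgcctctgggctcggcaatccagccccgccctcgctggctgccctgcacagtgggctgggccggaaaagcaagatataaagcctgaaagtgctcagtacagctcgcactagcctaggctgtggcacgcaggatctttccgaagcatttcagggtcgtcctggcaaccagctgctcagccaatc
Abcc1: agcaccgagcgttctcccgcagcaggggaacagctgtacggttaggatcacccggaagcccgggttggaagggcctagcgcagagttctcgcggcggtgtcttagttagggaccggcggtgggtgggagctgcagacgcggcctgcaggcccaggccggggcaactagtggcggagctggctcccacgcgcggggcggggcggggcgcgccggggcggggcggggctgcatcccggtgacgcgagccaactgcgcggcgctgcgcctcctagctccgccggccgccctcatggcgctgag
Cat: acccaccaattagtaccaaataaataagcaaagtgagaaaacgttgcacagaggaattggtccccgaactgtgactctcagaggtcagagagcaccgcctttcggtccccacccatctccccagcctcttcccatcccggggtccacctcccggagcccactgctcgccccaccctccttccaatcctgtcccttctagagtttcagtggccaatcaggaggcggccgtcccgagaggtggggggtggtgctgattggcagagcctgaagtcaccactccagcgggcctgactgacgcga
Gclm: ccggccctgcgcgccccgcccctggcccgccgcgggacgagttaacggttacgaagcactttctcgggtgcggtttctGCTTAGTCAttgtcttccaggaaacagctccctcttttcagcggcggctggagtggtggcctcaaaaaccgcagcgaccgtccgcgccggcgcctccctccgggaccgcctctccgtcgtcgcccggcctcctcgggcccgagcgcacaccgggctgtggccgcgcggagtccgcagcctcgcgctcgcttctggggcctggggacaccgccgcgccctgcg
Txnrd1: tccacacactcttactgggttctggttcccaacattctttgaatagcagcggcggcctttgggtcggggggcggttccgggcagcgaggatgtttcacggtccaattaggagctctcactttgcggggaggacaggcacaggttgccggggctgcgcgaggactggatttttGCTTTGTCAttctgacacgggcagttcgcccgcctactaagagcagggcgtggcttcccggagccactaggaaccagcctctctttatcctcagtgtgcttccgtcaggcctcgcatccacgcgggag

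The core letters, searched on both strands, occurred in 12.1% of the 33465 promoter windows of the table. They were not found in the windows of Nqo1, Abcc1 or Cat. Gclm held TGACTAAGC on the opposite strand, 172 to 164 bases before the start, and the second of 2 Txnrd1 windows held TGACAAAGC on the opposite strand, 78 to 70 bases before its start. Sod2 had a match 35 to 27 bases before its start and Nfe2l2 had one 39 to 47 bases after it, whereas Gclc, Sod1 and the first Txnrd1 window had none. The Abcc1 window held 5 copies of the GC box GGGCGG, partly overlapping, where 33.1% of all windows held at least 1, and the Cat window held none. A match describes the letters only, and an element outside these windows would not be seen.

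Values are Affymetrix signals as deposited or log2 of the signal plus 16 after quantile normalisation, and changes are on that log2 scale, which understates the change of dim probe sets. Each contrast came from 1 limma fit of the 4 group means with two-sided tests, and p-values were adjusted by Benjamini-Hochberg across the 18625 probe sets, with calls at an adjusted p under 0.05. The number of arrays limits the precision: the within-group SD had a median of 0.30 over all tested probe sets. Median array signal ran from 44.8 to 63.5 in 11 arrays and was 111 in replicate 3 of nandrolone at day 35, which also stood apart in its correlation with its group (mean r = 0.937, against 0.950 to 0.975 elsewhere). That array's summed signal over the 5 Schwann cell markers on the array was 12113, against 1065 to 2180.1 in the others, and its sums for adipocyte and smooth muscle markers were 14385 and 11131, against 1279 to 2946 and 1489 to 2532. Skeletal muscle markers (9 of 10 on the array) summed to 111595 to 123570 in all 12 arrays, and hepatocyte markers to 41.9 to 93.8. On the scale as deposited, the median of all probe sets shifted by up to 0.26 (nandrolone minus vehicle at day 35), and the changes below are relative to that shift.

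Over all probe sets, day 35 minus day 7 gave 2338 calls averaged over treatments (12.6% of those tested, 6.49% higher and 6.07% lower), 1045 within vehicle (5.61%, with 641 or 3.44% higher and 404 or 2.17% lower) and 126 within nandrolone (0.677%, with 51 or 0.274% higher and 75 or 0.403% lower). Without normalisation the same counts were 953 (670 higher, 283 lower), 192 (148 higher, 44 lower) and 15 (15 higher, 0 lower). Nandrolone minus vehicle gave 0 calls by limma at either day or averaged over days, with 331 (1.78%), 1590 (8.54%) and 889 (4.77%) probe sets at an unadjusted p under 0.05.

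Nqo1, which encodes the quinone reductase often used as a readout of Nrf2 activity, rose between day 7 and day 35 in vehicle-treated muscle. Its deposited signal in vehicle at day 7 was 400.2, 431 and 451, and at day 35 it was 639, 1220.3 and 1421. With nandrolone the signal was 591, 582 and 453 at day 7 and 876, 769 and 874 at day 35. All 6 day 35 arrays lay above all 6 day 7 arrays on this scale, and the vehicle arrays at day 35 spread most. Averaged over treatments, the median of all probe sets on this scale was itself 0.12 log2 units higher at day 35. How many of all probe sets separated in this way was not counted, and after normalisation the 6 Nqo1 arrays of each day overlapped. After normalisation the log2 level rose from 8.94 ± 0.15 to 10.10 ± 0.54 in vehicle (SD, n = 3 each), a change of 1.17 ± 0.28 (SE) or 2.24-fold (limma, adjusted p = 0.0338). With nandrolone the change was 0.46 ± 0.28 (adjusted p = 0.485), and the normalised arrays of the days overlapped. Averaged over treatments the change was 0.81 ± 0.20 or 1.76-fold (adjusted p = 0.0211). The call in vehicle was lost when replicate 1, 2 or 3 of vehicle at day 7 or replicate 2 or 3 of vehicle at day 35 was left out (adjusted p of 0.0857 to 0.111), and the average lost it without replicate 1 of vehicle at day 7 (adjusted p = 0.0526).

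Abcc1, a plasma membrane pump that exports glutathione conjugates, showed the highest rise of the 10 genes in vehicle. The deposited signal was 489.8, 469 and 319.7 in vehicle at day 7 and 1234, 982 and 2007 in vehicle at day 35. With nandrolone it was 671, 427 and 379 at day 7 and 734, 789 and 907 at day 35. On this scale the 3 vehicle arrays at day 35 were the highest of the 12, and the 3 nandrolone arrays at day 35 came next. After normalisation the nandrolone arrays of the days overlapped. Replicate 1 at day 7 (9.57) then lay above replicates 2 and 3 at day 35 (9.54 and 9.19). How many of all probe sets had such an order on the deposited scale was not counted. The normalised level rose from 8.91 ± 0.36 to 10.47 ± 0.26 in vehicle, by 1.57 ± 0.28 or 2.96-fold (limma, adjusted p = 0.0111), and averaged over treatments by 1.07 ± 0.20 or 2.10-fold (adjusted p = 0.00585). Within nandrolone the change of 0.58 ± 0.28 missed the threshold (adjusted p = 0.370). Without replicate 3 of vehicle at day 7 the vehicle change was 1.35 and missed it (adjusted p = 0.0580).

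Cat encodes catalase, the peroxisomal enzyme that splits hydrogen peroxide, and it rose with time in nandrolone-treated muscle. The deposited signal was 1559.7, 2394 and 1462 with nandrolone at day 7 and 3471, 4212 and 3609 at day 35. In vehicle it was 2372, 1901 and 1878 at day 7 and 2948, 2777 and 3075 at day 35. No day 7 array reached the lowest day 35 array in either treatment, and Cat was the only one of the 10 genes whose 6 arrays of each day did not overlap after normalisation, where 6.60% of all probe sets did the same. The log2 change was 1.06 ± 0.19 or 2.08-fold with nandrolone (limma, adjusted p = 0.0365), 0.55 ± 0.19 in vehicle (adjusted p = 0.108) and 0.81 ± 0.14 or 1.75-fold averaged over treatments (adjusted p = 0.00349). The difference between the treatments' changes was 0.51 ± 0.27 with a 95% interval of −0.08 to 1.09 and did not pass (limma, adjusted p = 0.928). The nandrolone call was lost without normalisation (1.08, adjusted p = 0.0652), with median centring (0.82, adjusted p = 0.171) and without any of 8 of the 12 arrays (adjusted p of 0.0600 to 0.119), namely the 3 of vehicle at day 7, the 3 of nandrolone at day 7 and replicate 1 of each day 35 group.

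Across the 10 genes, 2 passed the test in vehicle, where 5.61% of all probe sets did, 1 passed with nandrolone beside 0.677%, and 3 passed averaged over treatments beside 12.6%, all of them higher at day 35. The median change of the 10 genes was 0.01 in vehicle, −0.03 with nandrolone and −0.11 averaged over treatments, where all tested probe sets had medians of −0.00, −0.01 and −0.01. In vehicle the arrays of the days did not overlap for 6 genes, 4 higher (Nqo1, Abcc1, Sod1 and Cat) and 2 lower (Gclm and Nfe2l2), beside 35.3% of all probe sets (18.5% higher and 16.7% lower). With nandrolone this held for 2 genes, Cat higher and Txnrd1 lower, beside 16.5% (7.28% higher and 9.2% lower). In vehicle, and likewise with nandrolone, 5 of the 10 changes lay above 0 and 5 below. The 3 genes that passed were thus Nqo1, Abcc1 and Cat, and the other 7 did not pass in any contrast. Summed macrophage markers were 4188 to 5230.4 in vehicle at day 7 and 2319.9 to 3013 at day 35, which do not overlap. In vehicle 0 of 13 tested macrophage markers were called, and 0 changed upwards, with a median of −0.76. Erythrocyte markers (3 of 5 on the array) summed to 4024 to 6399 in vehicle at day 7 and 1397 to 2846 at day 35, which do not overlap, with 1 of 3 called lower and a median of −1.26. With nandrolone their sums were 3739 to 7273 at day 7 and 1906 to 7584 at day 35, with 0 called. In vehicle 0 of 9 skeletal muscle, 0 of 6 endothelial, 0 of 6 fibroblast, 0 of 5 smooth muscle, 0 of 5 adipocyte and 0 of 4 Schwann cell markers were called. Changes above 0 were found for 5 of 5 adipocyte markers (median 0.61) and 6 of 9 skeletal muscle markers. The same held for 4 of 6 endothelial, 3 of 6 fibroblast, 3 of 5 smooth muscle and 2 of 4 Schwann cell markers. Averaged over treatments 2 macrophage markers and 1 erythrocyte marker were called lower and 1 of 6 fibroblast markers higher. The 3′ to 5′ ratio of the actin control, which rises as RNA degrades, was 2.81, 2.11 and 2.25 in vehicle at day 7 and 3.13, 2.68 and 3.71 at day 35, and with nandrolone it was 2.79, 2.29 and 2.08 at day 7 and 2.57, 2.12 and 1.90 at day 35. The part of other cell types and of RNA quality in the 3 rises was not tested. In bulk muscle, fewer cells of a type and less RNA per cell cannot be told apart.

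**Figure D1:**
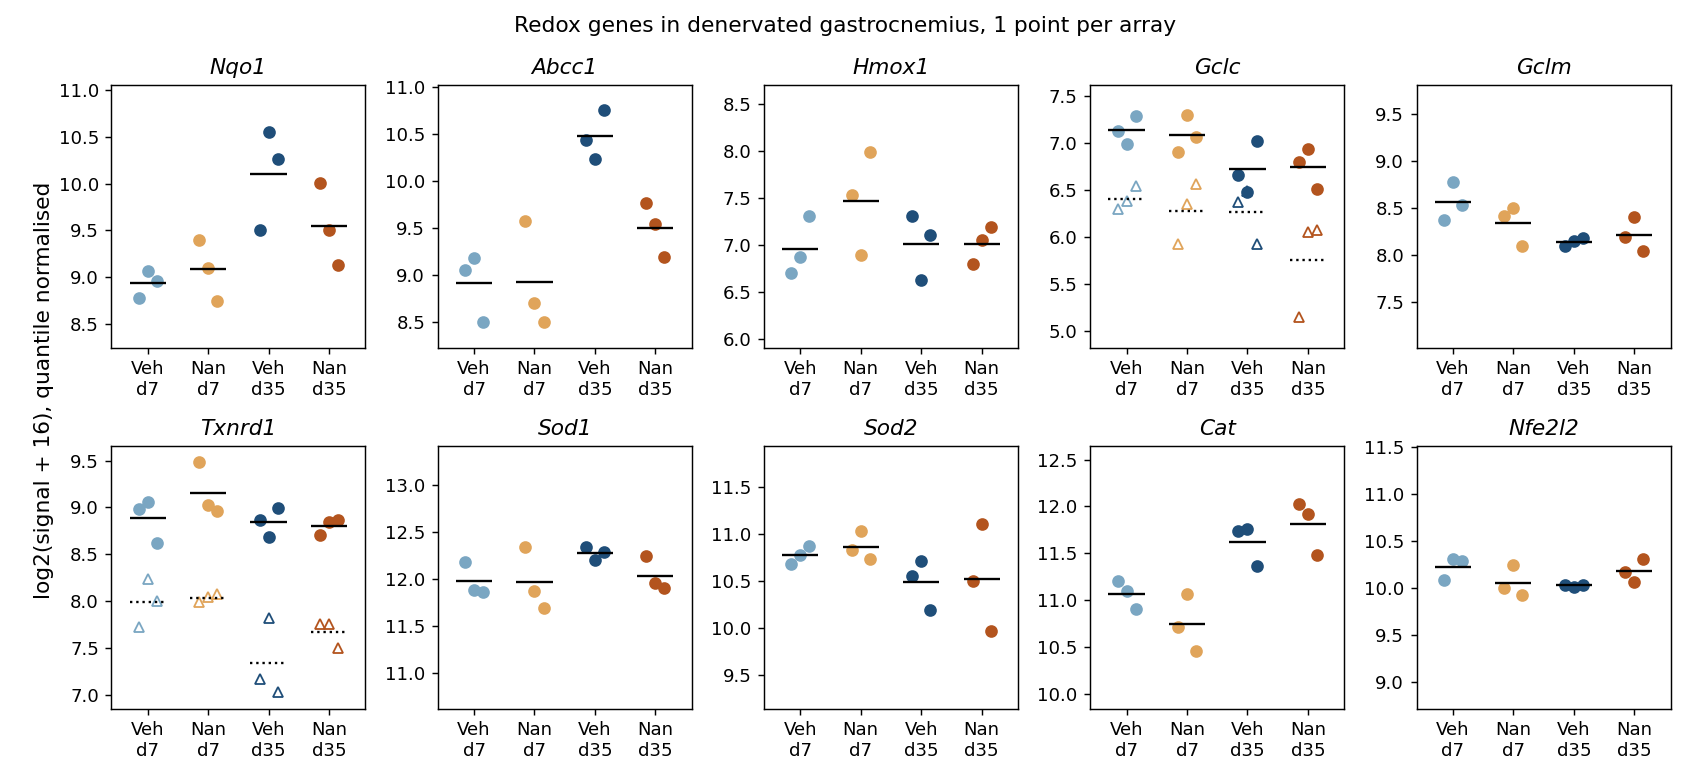
Normalised log2 level of each gene in all 12 arrays, by group, with the group mean as a line; filled circles are the representative probe set and open triangles the other probe set of Gclc and Txnrd1. Group means of Nqo1, Abcc1 and Cat are higher at day 35, but the nandrolone arrays of the days overlap for Nqo1 and Abcc1. At day 35 Abcc1 is highest in vehicle (mean 10.47) and Cat with nandrolone (mean 11.81). Nfe2l2 spans 0.39 log2 units over the 12 arrays.

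Gclc and Gclm encode the catalytic and modifier subunits of glutamate-cysteine ligase, which makes the first committed step of glutathione synthesis. Neither passed the test in any contrast. The deposited signal of Gclm ran from 298 to 347 in vehicle at day 7 (median 328), from 285 to 371 with nandrolone at day 7 (median 287), from 216 to 316 in vehicle at day 35 (median 233) and from 235 to 445 with nandrolone at day 35 (median 351). Normalised values in vehicle were 8.38, 8.78 and 8.53 at day 7 and 8.10, 8.15 and 8.18 at day 35, which do not overlap, and the change was −0.42 ± 0.18 (limma, adjusted p = 0.175). With nandrolone it was −0.12 ± 0.18 (adjusted p = 0.792). Gclc was dim, with signals of 58.5 to 148 over all arrays, and changed by −0.41 ± 0.20 in vehicle, −0.34 ± 0.20 with nandrolone and −0.38 ± 0.14 on average (adjusted p = 0.242, 0.470 and 0.105). Its other probe set, with signals of 16.4 to 100.4, gave −0.15 ± 0.28, −0.52 ± 0.28 and −0.33 ± 0.20. Both subunits thus had changes below 0 where Nqo1 and Abcc1 lay above it. On average Gclc passed only when arrays were weighted by their quality (−0.38, limma, adjusted p = 0.0349). With those weights 4570 of all 18625 probe sets passed, beside 2338 without them.

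Txnrd1 encodes the cytosolic thioredoxin reductase, which keeps thioredoxin reduced with NADPH. Its representative probe set had signals of 464, 426 and 352 in vehicle at day 7 and 409, 323 and 583 at day 35, which overlap. The change in vehicle was −0.04 ± 0.19 (limma, adjusted p = 0.933) and with nandrolone −0.35 ± 0.19 (adjusted p = 0.414), where the day 35 arrays at 8.70, 8.84 and 8.87 lay below those of day 7 at 9.48, 9.02 and 8.97. The other probe set gave −0.64 ± 0.22 in vehicle (adjusted p = 0.104), −0.37 ± 0.22 with nandrolone (adjusted p = 0.471) and −0.51 ± 0.16 on average (adjusted p = 0.0506). The 2 probe sets thus differed most in vehicle and neither was called.

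Sod1 and Sod2 encode the cytosolic copper-zinc and the mitochondrial manganese superoxide dismutase. Sod1 had signals from 3399.7 to 5724 in the 12 arrays and a change of 0.30 ± 0.17 in vehicle (limma, adjusted p = 0.296) and 0.07 ± 0.17 with nandrolone (adjusted p = 0.888). In vehicle its normalised values of 12.18, 11.89 and 11.86 at day 7 lay below 12.35, 12.20 and 12.29 at day 35. Sod2 had signals from 1217 to 2359 and a change of −0.29 ± 0.24 in vehicle and −0.34 ± 0.24 with nandrolone (adjusted p = 0.507 and 0.555). Its normalised values with nandrolone at day 35 were 10.49, 11.11 and 9.97, which hold both the lowest and the highest value of the 12 arrays. Without replicate 2 of that group, the highest, Sod2 passed for the average over treatments (−0.46, adjusted p = 0.0443). The 95% interval of the average change was −0.07 to 0.44 for Sod1 and −0.68 to 0.05 for Sod2.

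Hmox1 encodes haem oxygenase 1, an inducible enzyme that breaks down haem and is made in quantity by macrophages that clear red cells. Its signal was 81.3, 83.4 and 129.7 in vehicle at day 7, 142, 107 and 263 with nandrolone at day 7, 127, 66.2 and 137 in vehicle at day 35 and 79.2, 129 and 246 with nandrolone at day 35. The highest array was replicate 3 of nandrolone at day 7, and all groups overlapped after normalisation. Nandrolone minus vehicle at day 7 was 0.51 ± 0.28 with a 95% interval of −0.10 to 1.13 (limma, adjusted p = 1), the highest such value among the 10 genes, and at day 35 it was −0.00 ± 0.28 (adjusted p = 0.998). Summed signal of 14 macrophage markers was 3127, 4415 and 11335 with nandrolone at day 7, so the array with the highest Hmox1 also had the highest macrophage sum. In vehicle at day 7 the sums were 4339.6, 4188 and 5230.4, and with nandrolone at day 35 they were 2847, 3612 and 6762. Without replicate 3 of nandrolone at day 7 the Hmox1 difference was 0.26. The part of macrophages in the Hmox1 values was not tested.

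**Figure D2:**
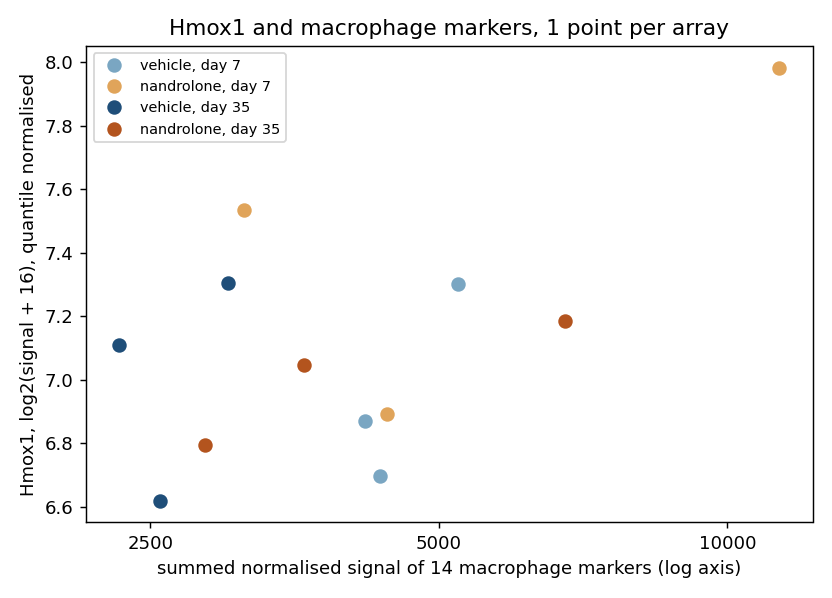
Normalised log2 level of Hmox1 against the summed normalised signal of 14 macrophage markers, 1 point per array, coloured by group. Replicate 3 of nandrolone at day 7 is highest on both axes (7.98 and 11335), and the next highest sum, 6762 in replicate 3 of nandrolone at day 35, goes with an Hmox1 level of 7.18. The sum is on a log axis.

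Nfe2l2, the gene of Nrf2 itself, was the steadiest of the 10. Its signal was 1029 to 1180.2 in vehicle at day 7, 923 to 1310.2 with nandrolone at day 7, 836 to 1209.6 in vehicle at day 35 and 985 to 1801 with nandrolone at day 35. Its within-group SD of 0.12 lay at the 2.86th percentile of all tested probe sets, and its 12 normalised values spanned 0.39. The change with time was −0.20 ± 0.14 in vehicle and 0.13 ± 0.14 with nandrolone (limma, adjusted p = 0.445 and 0.727), and the average of −0.03 had a 95% interval of −0.25 to 0.18. At day 35 the nandrolone arrays at 10.17, 10.07 and 10.31 lay just above the vehicle arrays at 10.03, 10.01 and 10.03, a difference of 0.16 ± 0.14 (adjusted p = 0.707).

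**Figure D3:**
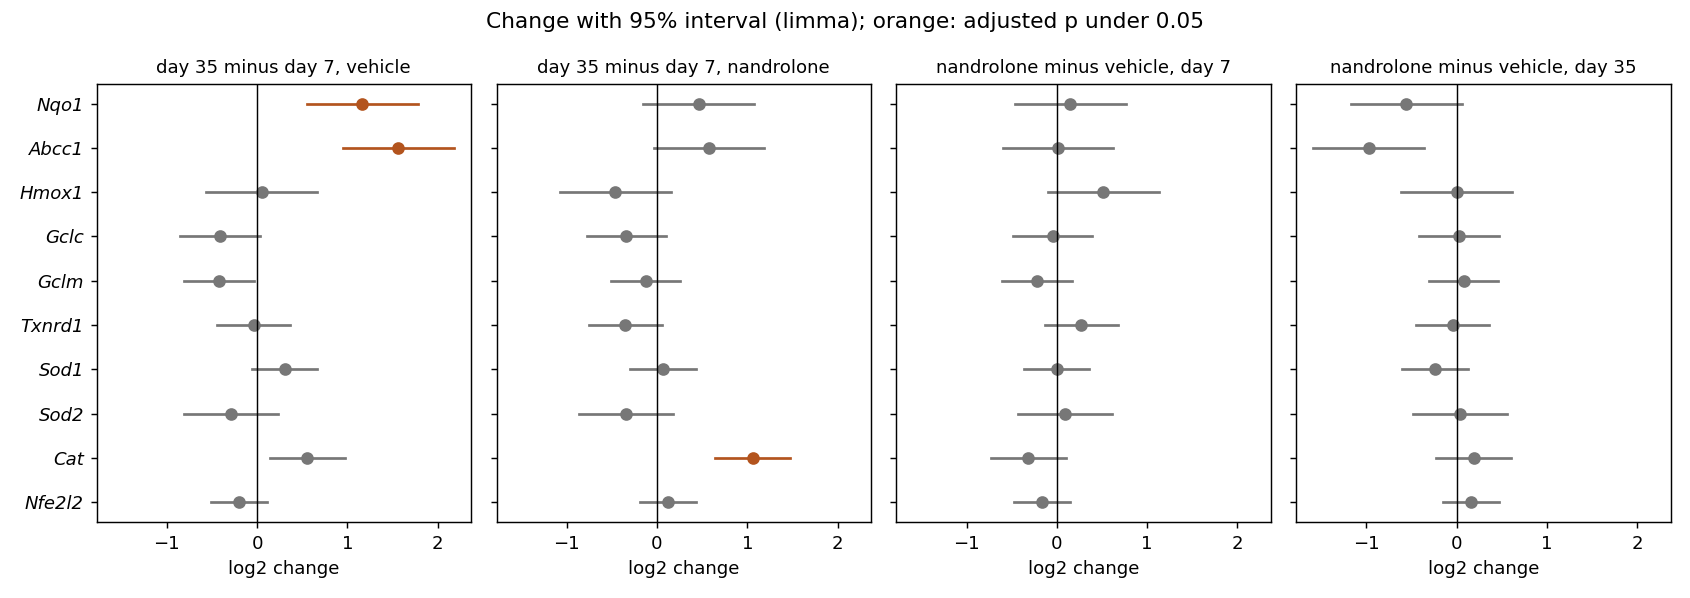
Log2 change of each gene (points) with its 95% interval (lines) between the days in each treatment and between treatments at each day, with adjusted p under 0.05 in orange. Abcc1 (1.57) and Nqo1 (1.17) are called with time in vehicle and Cat (1.06) with time in nandrolone, and 0 of 10 genes are called for nandrolone at either day.

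Nandrolone was compared with vehicle at each day to ask whether the androgen moved these genes in denervated muscle, and 0 of the 10 genes passed at day 7, at day 35 or averaged over days, as for all probe sets (0%). The furthest from 0 was Abcc1 at day 35, at −0.97 ± 0.28 with a 95% interval of −1.59 to −0.36 (limma, adjusted p = 0.562, and 0.0919 to 0.800 over 20 alternatives). Its normalised values were 10.44, 10.23 and 10.75 in vehicle and 9.77, 9.54 and 9.19 with nandrolone, which do not overlap, as was so for 11.6% of all probe sets. Nqo1 at day 35 was −0.56 ± 0.28 with an interval of −1.17 to 0.06 (adjusted p = 0.562), and its arrays overlapped. The actin ratios given above were 2.68 to 3.71 in vehicle and 1.90 to 2.57 with nandrolone at day 35, which do not overlap either. The 3′ to 5′ ratios of the GAPDH control at day 35 were 1.20, 1.13 and 1.36 in vehicle and 1.14, 1.17 and 1.17 with nandrolone, which overlap. The part of RNA quality in these differences was not tested. At day 7 the other values lay between −0.32 (Cat) and 0.27 (Txnrd1) beside 0.51 for Hmox1, and all groups overlapped.

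Whether the nandrolone effect differed between the days was tested as the interaction, which passed for 0 of the 10 genes and 0% of all probe sets, with 745 probe sets (4%) at an unadjusted p under 0.05. Abcc1 was the 1 gene of the 10 among them, with −0.99 ± 0.40 and a 95% interval of −1.85 to −0.12 (limma, adjusted p = 0.928). Nqo1 followed with −0.70 ± 0.40 and an interval of −1.57 to 0.16. The calls for Nqo1 and Abcc1 in vehicle but not in nandrolone are therefore not shown to differ between treatments.

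Levels of different genes are not compared here, since array signal depends on the probe set. Within-group SD, which is relative to a gene's own level, was highest for Nqo1 (0.39), Abcc1 (0.39), Hmox1 (0.37) and Sod2 (0.33) and lowest for Nfe2l2 (0.12), Gclm (0.17) and Txnrd1 (0.20), with Gclc and Sod1 at 0.21 and Cat at 0.25. The range of the group means exceeded 1 log2 unit for Abcc1 (1.57), Nqo1 (1.17) and Cat (1.06). For the other 7 genes it lay between 0.20 and 0.51.

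The genes whose profile over the 12 arrays lay nearest to each gene were read off as a description, with Pearson's r over 12 arrays that share groups and normalisation and 10420 other genes to choose from. Among the 10 genes themselves the profile nearest to Nqo1 was that of Abcc1 (r = 0.838). Nqo1 lay nearest to Bmp2 (0.949), Thtpa (0.936) and Dnajc7 (0.932), and Abcc1 to Kyat3 (0.975), Flot2 (0.955) and Zeb1 (0.954). Cat lay nearest to Dtwd1 (0.928), Cox7a1 (0.922), a muscle subunit of cytochrome oxidase, and Asah2 (0.911). Hmox1 lay nearest to Arl11 (0.832), Lgmn (0.805), a lysosomal protease, and Spp1 (0.782), which encodes osteopontin, and its nearest r was the lowest of the 10 genes. Nfe2l2 had Tut4 (0.846), Lrrc58 (0.838) and Smim15 (0.822). Gclc was nearest to Msrb2 (0.954), Gclm to Egr3 (0.961), Txnrd1 to Hdac3 (0.948), Sod1 to Slc25a44 (0.968) and Sod2 to Smyd1 (0.938).

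The surrounding pathway was read from 8 lists with 123 genes, of which 113 were on the array and 94 were tested. The lists were chosen with earlier results of these data known. Their shares, here and below, are therefore descriptions, and an excess over all probe sets was not tested. The units also differ, since a list gene counts through its brightest probe set only, while the other share counts every tested probe set. With time, averaged over treatments, 22 of the 94 passed (23.4% beside 12.6% of all probe sets), 8 higher and 14 lower. The median change of the 94 was −0.03 beside −0.01 for all. Within vehicle 6 passed (6.38% beside 5.61% of all probe sets, 2 higher and 4 lower). Within nandrolone 3 passed (3.19% beside 0.677%, 1 higher and 2 lower). Nandrolone and the interaction gave 0 of 94. Leaving out each array in turn kept 14 of the 22 every time, and Cdkn1a, Gpx1, Srxn1, Me3, Ephx1, Ephx2, Mt3 and Rac2 missed the threshold at least 1 time. On the deposited scale, without normalisation, Maff, Cdkn1a, Gsr, Gpx1, Glrx3, Prdx5, Srxn1, Ephx2, Akr1b1, Ucp3 and Rac2 missed it (adjusted p of 0.0545 to 0.285) with their signs unchanged. With replicate number as a block, Srxn1 (adjusted p = 0.0616) and Ephx2 (adjusted p = 0.0542) missed it. Gpx1 and Mt3, beyond the 4 genes per list that the naming rule allows, are named below after their values were seen, to complete the counts. Without replicate 3 of nandrolone at day 35, a setting chosen after seeing the data, 29 passed (13 higher, 16 lower). Calls over all 18625 probe sets also rose in that setting, from 2338 to 2675.

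Of 13 tested Nrf2 regulators 2 passed (15.4%, beside 12.6% of all probe sets). Maff, a small Maf protein that pairs with Nrf2, fell by 1.02 ± 0.21 averaged over treatments (limma, adjusted p = 0.0101) and by 1.38 ± 0.30 in vehicle (called in 13 of 19 alternatives), where its signal went from 126, 130.2 and 143 at day 7 to 41.1, 29.9 and 67.3 at day 35. Cdkn1a, the cell cycle inhibitor p21 that binds Nrf2, rose by 1.81 ± 0.52 (adjusted p = 0.0385), but its vehicle arrays at day 35 were 7008, 703 and 8316 and its other probe set, at 0.93 ± 0.56, did not pass. Keap1 and Cul3, named for their role and not by their values, gave average changes of −0.03 ± 0.15 and −0.02 ± 0.14, and neither passed.

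Of 17 glutathione genes 5 passed (29.4%, beside 12.6% of all probe sets), 1 higher and 4 lower. Gpx3, the secreted glutathione peroxidase, rose by 0.67 ± 0.12 (limma, adjusted p = 0.00410), and in vehicle its signal went from 3392, 2831 and 3049 to 4360.4, 5859 and 6233. Glutathione reductase Gsr (−0.80 ± 0.19), the intracellular peroxidase Gpx1 (−0.69 ± 0.19) and the glutaredoxins Glrx2 (−0.70 ± 0.11) and Glrx3 (−0.38 ± 0.09) fell. Gsr was dim, at signals of 18.8 to 89.7, and the other probe set of Glrx2 gave 0.03 ± 0.17. The Gpx1 signal in vehicle went from 6350, 4512 and 5614 to 2129, 3086 and 2916. With nandrolone it was 6071.5, 6383 and 7133 at day 7 and 2253.5, 7403 and 6169 at day 35, which overlap. Of 17 thioredoxin and peroxiredoxin genes 3 passed (17.6%, beside 12.6% of all probe sets). Of the 17, 0 rose, where 6.49% of all probe sets did, and 3 fell, where 6.07% did. They were thioredoxin Txn1 (−0.50 ± 0.10), Prdx5 (−0.60 ± 0.14) and Srxn1, the enzyme that repairs oxidised peroxiredoxins (−0.74 ± 0.22, and −0.84 ± 0.19 for its other probe set).

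Of 8 genes for other superoxide and metal defence 5 passed (62.5%, beside 12.6% of all probe sets), 2 higher and 3 lower. Extracellular superoxide dismutase Sod3 rose by 0.84 ± 0.12 (limma, adjusted p = 0.00178), with signals of 352, 365 and 372 in vehicle at day 7 and 739, 481 and 722 at day 35, and it also passed within vehicle (0.71 ± 0.18, adjusted p = 0.0369) and within nandrolone (0.98 ± 0.18, adjusted p = 0.0360). Those calls held in 14 of 20 alternatives in vehicle (adjusted p up to 0.192) and 11 of 20 with nandrolone (up to 0.163), while the average was called in all 20. The metallothioneins, cysteine-rich metal binders, split: Mt2A fell by 1.55 ± 0.28 and Mt1 by 1.07 ± 0.20, while Mt3 rose by 0.99 ± 0.27. The mitochondrial carrier Ucp3 fell by 0.66 ± 0.14. Cat and Sod3 thus rose between the days while Sod1 and Sod2 did not pass.

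Of 8 haem and iron genes 2 passed, both lower (25%, beside 12.6% of all probe sets in either direction and 6.07% lower). The transferrin receptor Tfrc, which also abounds on immature red cells, fell by 2.21 ± 0.39 or 4.64-fold averaged over treatments (limma, adjusted p = 0.00419). In vehicle its signal went from 3098, 1688 and 3017 to 388, 265 and 631. With nandrolone it was 1772, 3908 and 3257 at day 7 and 209.5, 2269 and 1143.5 at day 35, which overlap. Within nandrolone 0 of the 8 genes passed. The porphyrin transporter Abcb6 fell by 1.20 ± 0.25 averaged over treatments. Erythrocyte markers were lower beside Tfrc and Abcb6, with 0 of 3 above 0 and 1 called averaged over treatments (median −0.83). The part of erythrocytes in these falls was not tested. Of 12 detoxification and export genes 3 passed, all higher (25%, beside 12.6% of all probe sets in either direction and 6.49% higher). The epoxide hydrolases Ephx1 (0.74 ± 0.21) and Ephx2 (0.42 ± 0.13) and the aldose reductase Akr1b1 (0.52 ± 0.11) rose. The other Akr1b1 probe set gave −0.04 ± 0.17. Of 10 NADPH genes 1 passed (10%), the mitochondrial malic enzyme Me3, which rose by 1.11 ± 0.30. Of 9 oxidant sources 1 passed (11.1%), Rac2, a leukocyte subunit of the NADPH oxidase, which fell by 0.89 ± 0.26. Neither share exceeded the 12.6% of all probe sets. Rac2 fell beside the macrophage list, of which 2 of 13 tested markers were called lower and 0 higher, with a median of −0.59, and the part of macrophages in it was not tested.

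**Figure D4:**
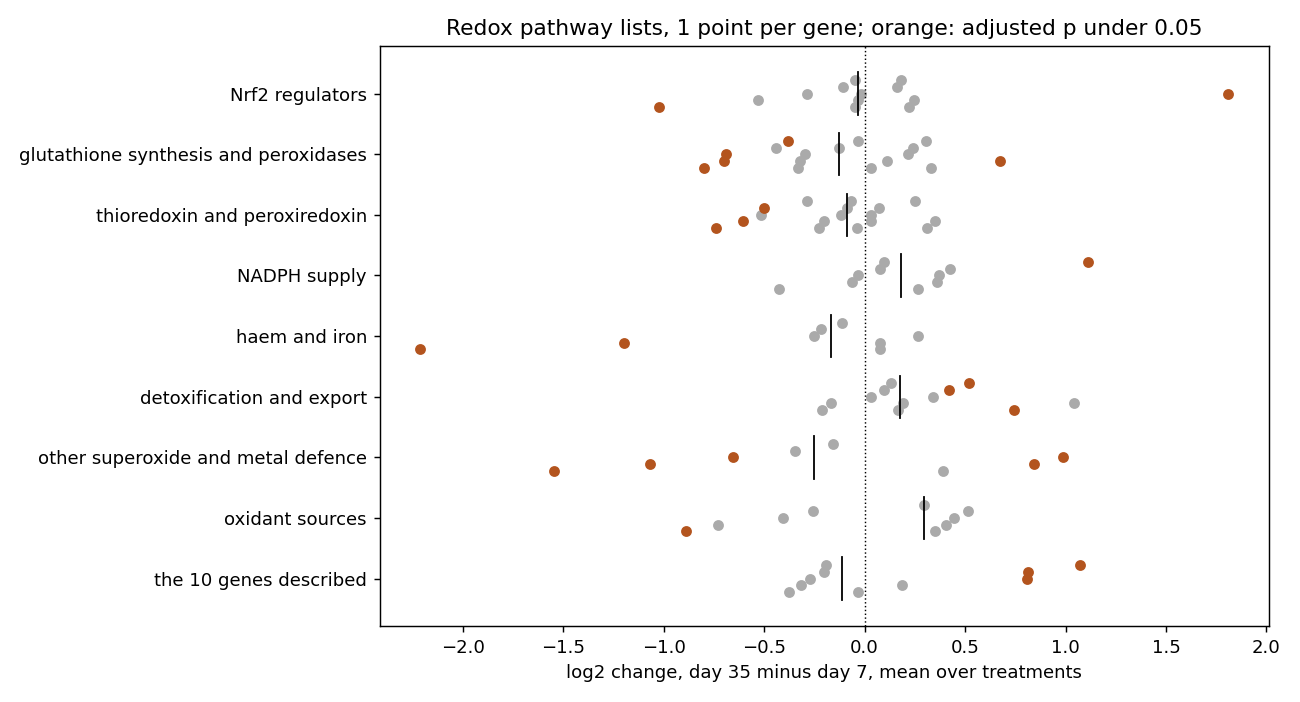
Log2 change between day 7 and day 35, averaged over treatments, for each tested gene of the 8 lists and for the 10 genes described, 1 point per gene and 1 row per list, with the list median as a line and adjusted p under 0.05 in orange. Called genes lie on either side of 0, from Tfrc at −2.21 to Cdkn1a at 1.81.

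**Figure D5:**
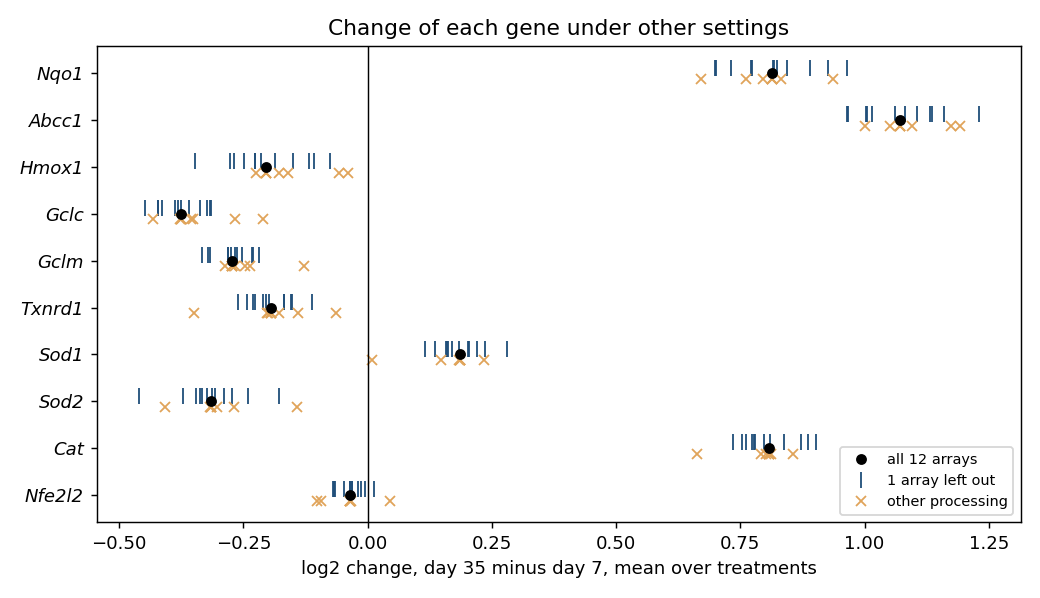
Log2 change of each of the 10 genes between the days, averaged over treatments, with all 12 arrays (black points), with 1 array left out (blue ticks) and with 8 other ways of processing (orange crosses). Abcc1 stays between 0.96 and 1.23 and Cat between 0.66 and 0.90, called in all 20, and Nqo1 stays between 0.67 and 0.97, called in 19.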

How the data were processed

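RNA of 12 denervated gastrocnemius samples was hybridised to 1-colour Affymetrix rat arrays. The values used are signal intensities made by the authors with MAS5, per the submitters' processing notes; its version and target scaling are not given in the sources used here. The deposited table holds 31099 probe sets, 57 of them controls. A further 12 numbered columns of fold changes, for which no key was given in the sources used here, were not used. The platform annotation gave 20826 probe sets 1 gene, 436 several and 9780 none, and 20758 were updated through RefSeq.

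Signals were taken as log2(signal + 16), quantile normalised over the 31042 other probe sets, and the 40% with the lowest mean were left out, leaving 18625 probe sets for 10421 genes. limma 3.58.1 in R 4.3.3 fitted 4 group means (lmFit and eBayes with trend, 8 residual degrees of freedom), with 7 contrasts, two-sided tests and Benjamini-Hochberg adjustment at 0.05. The scripts were tested on simulated data. No depth exists for arrays, so their number limits the precision.

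The members and the lists were chosen with earlier results of these data known. Genes named are the 10 members, list genes past the test (up to 4 a list and contrast, plus Gpx1 and Mt3, and Keap1 and Cul3 for their role) and the 3 nearest profiles of each member. Marker lists cover skeletal muscle, macrophages, adipocytes, endothelium, smooth muscle, Schwann cells, fibroblasts, erythrocytes and hepatocytes. Alternatives were the deposited scale, median centring, 2 other pseudocounts, 2 other filters, array weights, a replicate block and leaving out each array. For Gclc and Txnrd1 the mean of their 2 probe sets was a further one. Replicate numbers are shared by the groups. Deviations of same-numbered arrays correlated above 0.1 in every pair only between the 2 nandrolone groups (r = 0.162, 0.265 and 0.416). The labels state no pairing, and whether the numbers mark one was not tested.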

Additional observations from a re-analysis of the deposited data

How the results depend on the processing

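Changes of the 10 genes were recomputed 1414 times (70 results, 20 alternatives each and, for Gclc and Txnrd1, also the mean of their 2 probe sets). Of these, 1389 kept their side of the threshold and their direction where called. A call was lost in 17 and gained in 8, and 0 called values reversed. The sign changed in 77 values, none of them called. Abcc1 and Cat, averaged over treatments, passed in all 20. The cause of the shifts below was not tested. On the deposited scale the day contrasts gave 192 probe sets in vehicle, 15 with nandrolone and 953 averaged. Array weights gave 5274, 293 and 4570, with 6 of the 10 genes in vehicle (Nqo1, Abcc1, Gclc, Gclm, Sod1 and Cat), 49 probe sets for nandrolone at day 35 and 4 averaged over days. With no filter on low signal, 73 passed with nandrolone. The 1 gene called with nandrolone, Cat, went to 0 on the deposited scale and with median centring. Leaving out 1 array gave 178 to 2034 probe sets in vehicle (highest without replicate 3 of nandrolone at day 35, lowest without replicate 2 of vehicle at day 7), 0 to 263 with nandrolone (0 without replicate 1 or 2 of nandrolone at day 7, 263 without replicate 2 of nandrolone at day 35) and 1359 to 2675 averaged, with 0 to 3, 0 to 1 and 2 to 4 of the 10 genes. It gave 0 to 1 for nandrolone at day 7, at day 35 and averaged over days. The replicate block, 1 term over all 12 arrays, gave 1294 probe sets in vehicle, 128 with nandrolone and 2626 averaged. Cat stayed called within nandrolone, where no call of the 10 genes, or of Glrx2, Sod3 and Ucp3, changed. Averaged over treatments the block ended the calls of Srxn1 (−0.74, limma, adjusted p = 0.0616) and Ephx2 (0.42, adjusted p = 0.0542). In vehicle it added Cat (0.55, adjusted p = 0.0322). Samples of different groups share only a number in the labels, so the block is not a paired test. Array weights added Gclc to the average (4 of 10 genes). Of 615 recomputed calls of pathway genes, 458 passed and 157 did not, with 0 reversed. Averaged over treatments, 29 pathway genes passed without replicate 3 of nandrolone at day 35, beside 2675 of all probe sets. Genes near the background, such as Gclc, Hmox1, Gsr and Mt1, are limited by signal over background.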
